A study of Saccharomyces cerevisiae with 16 samples.

Results

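The promoters of 10 budding yeast genes of gluconeogenesis and growth on non-fermentable carbon were followed through 16 calling-card libraries. The genes were FBP1, PCK1, MLS1, MDH2, ACS1, SFC1, JEN1, SIP4, IDP2 and ADY2. A gene's promoter region was the interval between neighbouring genes onto which its start opens, by the strand letter in its systematic name, and each of the 10 had 1 such region in every table. They are 10 of 4740 nuclear regions in 15 of the tables, and of 4532 in the Gal4 table.

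Yeast growing on ethanol, acetate or lactate makes its glucose phosphate by gluconeogenesis, fed by the glyoxylate cycle, which turns acetyl units into malate and oxaloacetate. In glucose these genes are repressed. When glucose runs out, the Snf1 kinase relieves the repression, and the zinc cluster activators Cat8 and Sip4 act through carbon source-responsive elements in their promoters. Zinc cluster factors are a fungal family that typically reads CGG triplets.

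In the calling-card assay a factor is fused to the silencing protein Sir4, which draws the Ty5 retrotransposon to the factor's sites, so that insertions mark occupancy. Of the 16 libraries, 12 carried a fusion of Gal4, Leu3, Yrm1, Yrr1, Tea1, Lys14, Cat8, Cha4, Put3, Urc2, Hal9 or Aro80, each in strain BY4741 with SIR4 and the gene of the fused factor deleted (for Cat8, the genotype sir4D cat8D). The other 4 carried the Gal4 fusion in a sir4D gal4D background with a further deletion: HMO1 (strain name BY4742; hmoD in the genotype label), LEU3 (BY4743), SEF1 (BY4744) or YRM1 (BY4745). All fusions were driven from plasmids by the ADH1 promoter and not by the factor's own, and Ty5 by the inducible GAL1/10 promoter. The carbon source, temperature and time of induction are not given in the sources used here.

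Each group had 1 library, so nothing below has a replicate check, and every interval is a 95% interval for counting error. Libraries held 18295 (Cha4) to 36063 (Leu3) insertions for the factors and 6932 (HMO1 deletion) to 13882 (SEF1 deletion) for the Gal4 libraries with a further deletion. Shares are given per 100000 insertions of the library. The fold over background divides that share by the share of the same region in the authors' background insertions. A region counted as called when it held 5 insertions or more and the authors' p against background did not exceed 0.001. In the LEU3 deletion library 7 regions were called in all (0.148%), against 58 to 91 in the other 3 deletion libraries, and 83 in Gal4.

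Cat8 was the library with the most insertions at these promoters. Of the 10 members, 9 were called, where 1.37% of all regions were called in the same library. The members together held 1985 Cat8 insertions, 8.29% of the library (7.95 to 8.65), against 0.402% of the background. This is a pooled fold of 20.6 (18.4 to 23.2), and the median member stood at 20.2-fold against 0.703-fold for the median region. The members held 43.6% of all Cat8 insertions in called regions. SFC1, MDH2, MLS1, FBP1 and PCK1 ranked 1 to 5 among all Cat8 regions by insertions, JEN1 ranked 7, IDP2 15 and ACS1 18, whereas ADY2 ranked 264 and SIP4 307.

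**Figure D1:**
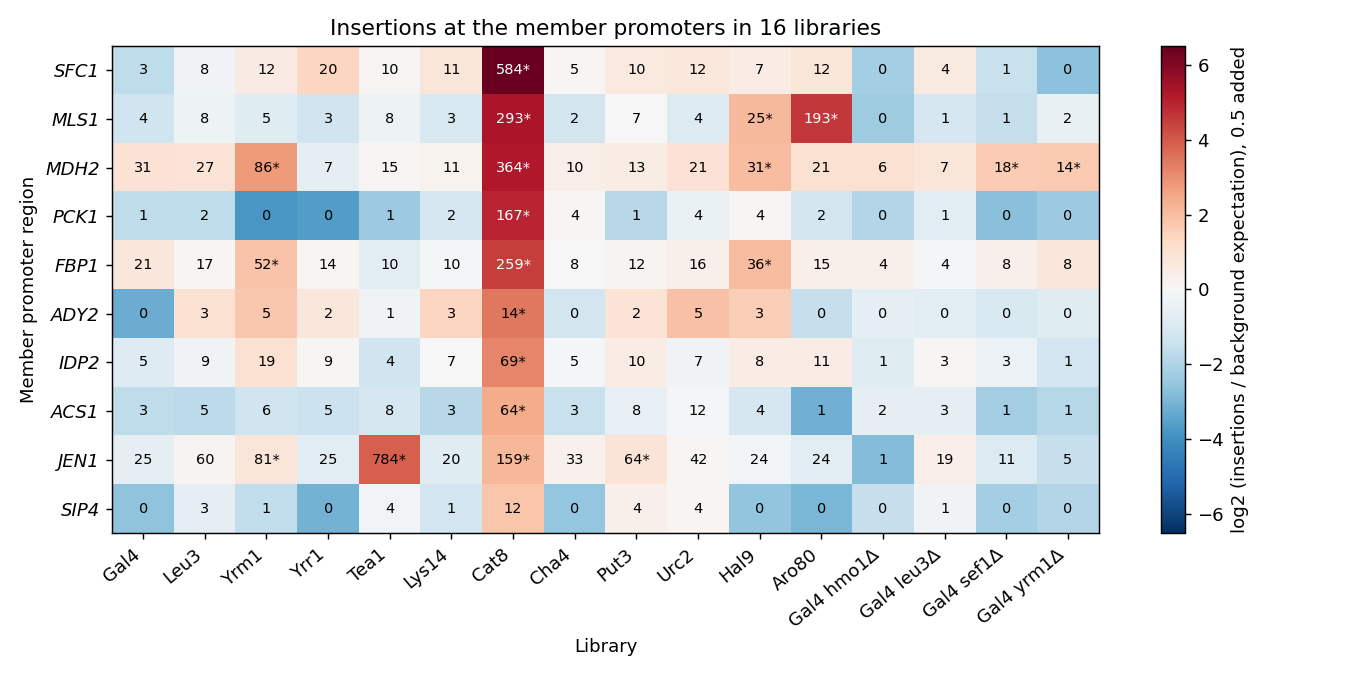
Insertions at the 10 member promoters (rows, ordered by Cat8 fold) in the 16 libraries (columns). Numbers are insertions, an asterisk marks a called region, and colour is the log2 ratio to the background expectation with 0.5 insertions added. The Cat8 column is red in every row, and isolated red cells stand at JEN1 in Tea1 (784 insertions) and MLS1 in Aro80 (193).

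Gluconeogenesis proper is represented by FBP1 and PCK1. FBP1 encodes fructose bisphosphatase, and its region (FBP1/SEC61, chromosome XII 874792 to 875736) opens onto no other listed gene, although a tRNA gene lies inside it. It held 259 Cat8 insertions where the background predicted 10.8, a fold of 23.9 (17.0 to 34.6). PCK1, encoding phosphoenolpyruvate carboxykinase (YKR096W/PCK1, chromosome XI 630380 to 631152), held 167 where 4.84 were predicted, a fold of 34.5 (20.9 to 60.7), or 55.8 with the background set of the Gal4 table. PCK1 held few insertions in the rest of the series. Few were predicted there too, from 3.70 (Cha4) to 7.29 (Leu3) in the other factor libraries. Cha4 and Hal9 stood near background at PCK1 (1.08- and 1.06-fold). The other 11 factor libraries held 0 (Yrm1, Yrr1), 1 (Gal4, Tea1, Put3), 2 (Leu3, Lys14, Aro80) or 4 (Cha4, Urc2, Hal9) insertions there, and a count of 0 in Yrm1 allows up to 9.57 per 100000, 0.473-fold.

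Glyoxylate and malate metabolism includes MLS1 and MDH2. MLS1 encodes malate synthase and shares its region with the start of DCP2, an mRNA decapping gene (DCP2/MLS1, chromosome XIV 405564 to 406358). It held 293 Cat8 insertions, 369 per kb, at 42.9-fold (28.3 to 68.0). MDH2 encodes the cytosolic malate dehydrogenase and shares its region with the start of the tRNA methyltransferase gene TRM13 (MDH2/TRM13, chromosome XV 82920 to 83834). It held 364, or 398 per kb, at 38.8-fold (27.1 to 57.2). Where 2 genes start from 1 region, the counts do not say to which an insertion belongs.

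SFC1 encodes the mitochondrial carrier that exchanges succinate for fumarate and so links the glyoxylate cycle to the mitochondrion. Its region (RPL43B/SFC1, chromosome X 608858 to 609773) opens onto SFC1 alone. It held 584 Cat8 insertions, 638 per kb, where 6.26 were predicted, a fold of 93.3 (61.0 to 150). This was 29.4% of the Cat8 insertions at the members, and without SFC1 the pooled fold was 15.6 (13.8 to 17.7).

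ACS1 and IDP2 supply acetyl-CoA and cytosolic NADPH, through acetyl-CoA synthetase and an isocitrate dehydrogenase. ACS1 (ACS1/FLC2, chromosome I 45022 to 45899, shared with the start of FLC2) held 64 Cat8 insertions at 5.48-fold (3.65 to 8.33), or 8.68-fold with the other background set. IDP2 (DPH5/IDP2, chromosome XII 502162 to 504591, shared with the start of DPH5) held 69 at 9.70-fold (6.06 to 16). The gene TAG1 (YLR173W) lies between DPH5 and IDP2 in the R64 gene table, so this interval is not all intergenic.

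Among the transporters, JEN1 encodes the lactate and pyruvate permease and ADY2 an acetate permease. JEN1 has by far the longest region of the members, 3895 bp (SRY1/JEN1, chromosome XI 18339 to 22234, shared with the start of SRY1), and 124 background insertions. Its 159 Cat8 insertions were therefore 40.8 per kb and 4.51-fold (3.54 to 5.75). ADY2 (ADY2/ADP1, chromosome III 133124 to 133724) was called on 14 insertions at 16.4-fold (4.58 to 89.0) over only 3 in the background. With the background set of the Gal4 table, which holds 13 there, its fold was 4.68 (2.04 to 10.8), and over the wider regions in the same tables it was 7.53. ADY2 is the member whose size is least certain.

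SIP4, the gene of the second activator of this regulon, was the only member not called in Cat8. Its region (DPB11/SIP4, chromosome X 265051 to 265926, shared with the start of the replication gene DPB11) held 12 insertions at 3.83-fold (1.55 to 9.59), with an authors' p of 0.00156. It was called with the background set of the Gal4 table (6.51-fold), with the wider regions (15 insertions, 4.79-fold), with a p of 0.01 and with the authors' Poisson p. In the other libraries SIP4 held at most 4 insertions.

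By Cat8 fold the order was SFC1, MLS1, MDH2, PCK1, FBP1, ADY2, IDP2, ACS1, JEN1 and SIP4. No member was separated from the next by its interval. Of the 45 pairs of members, 24 had intervals that did not overlap. SFC1 lay wholly above 7 members, all except MLS1 and ADY2. MLS1, MDH2, PCK1 and FBP1 each lay wholly above IDP2, ACS1, JEN1 and SIP4. The 4 regions that open onto the member alone (FBP1, PCK1, SFC1, ADY2) stood at 45.0-fold together (35.8 to 57.2), and the 6 shared with a divergent gene at 13.1-fold (11.4 to 15.1). SFC1 gave 584 of the 1024 insertions of the first set, and JEN1 124 of the 258 background insertions of the second. Without these, in a comparison added after the values were seen, the folds were 26.7 (20.2 to 35.7) and 21.0 (17.5 to 25.4), with overlapping intervals. The median member had 27.1 background insertions per kb, against 11.5 for the median region, although ADY2 (5.0) and IDP2 (10.3) lay below the latter.

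Insertions were concentrated on the start side of the genes. The region at the other end of each member gene held 70 Cat8 insertions in all over the 10 genes, a pooled fold of 2.14 (1.57 to 2.90). Of these 10 regions 2 were called, against 1.37% of all regions. Those were SFC1/YJR096W, with 15 insertions at 8.78-fold (3.22 to 27.6), and MLS1/DMA2, with 30 at 4.22-fold (2.40 to 7.48). Both hold the start of the next gene, but so do the end-side regions of FBP1, JEN1, SIP4, IDP2 and ADY2, which were not called. PCK1 and FBP1 had 1 insertion each at their ends, MDH2 2, and JEN1 8 at 0.969-fold. This comparison was chosen after the values were seen.

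**Figure D2:**
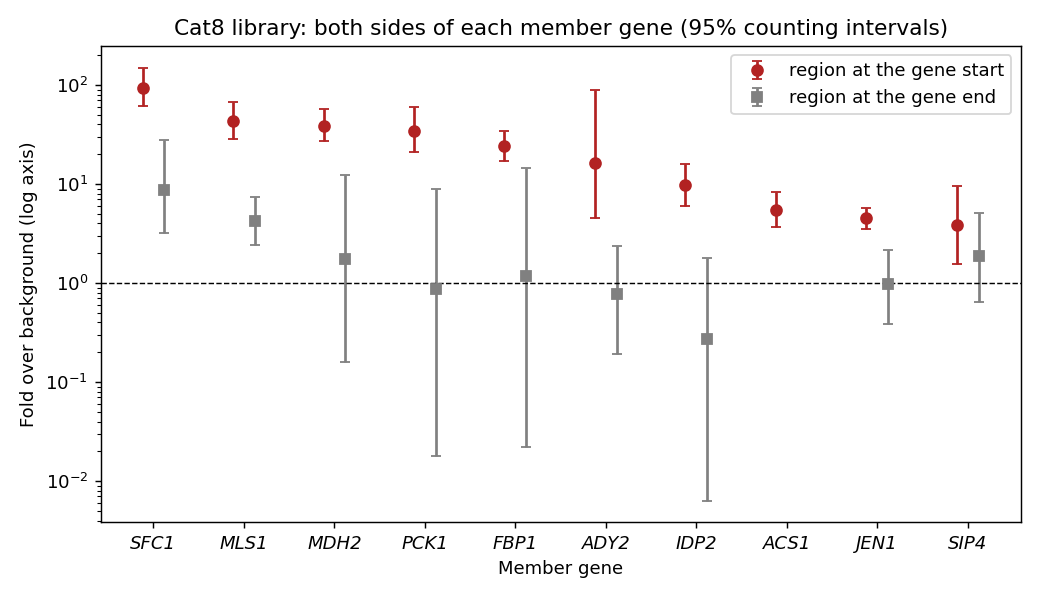
Fold over background in the Cat8 library (log axis) for the region at the start (red circles) and at the end (grey squares) of each member gene, with 95% counting intervals. ACS1 has no end-side value because its background count is 0, and the end-side points of SFC1 (8.78) and MLS1 (4.22) are the only ones whose intervals lie above 1.

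The Cat8 library was then set against each of the other 11 factor libraries, to ask whether insertions at these promoters go with Cat8 or with any zinc cluster fusion. Every region whose summed count over the pair reached 10 was tested on its insertions by Fisher's exact test, two-sided, with Benjamini-Hochberg adjustment, which compares libraries and not conditions. All 10 members were tested in each pair, since their Cat8 counts alone, 12 or more, exceed that minimum. They thus passed the filter through the library where they are high, and the same Cat8 counts enter all 11 pairs. For these reasons the tally of tests only describes. Of the 110 tests, 103 were higher in Cat8, 1 was lower and 6 did not pass, and the Cat8 share was the higher one in 109.

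All 10 members were higher in Cat8 than in Gal4 (51.5% of tested regions were), Leu3 (15.9%), Yrm1 (28.5%), Yrr1 (29.4%), Cha4 (9.26%) and Aro80 (11.3%). Against Tea1 (17.6%), Lys14 (7.88%) and Hal9 (9.08%) 9 members were higher, and against Put3 (4.53%) and Urc2 (4.92%) 8 were. The 1 test in the other direction was JEN1 against Tea1, where 13.3% of tested regions were lower in Cat8. No member was lower in Cat8 in the other 10 pairs. Of the tested regions, 12% were lower than in Gal4, 11.3% than in Leu3, 12.9% than in Yrm1, 9.97% than in Yrr1 and 11.9% than in Hal9. The share was 5.18% for Lys14, 2.95% for Cha4, 2.32% for Put3, 3.35% for Urc2 and 5.55% for Aro80. The large share of regions higher in Cat8 than in Gal4 is a property of that pair, so the count of 10 there is read against it.

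These shares depend on the totals used. With totals taken outside called regions, 34.3% of tested regions were higher and 14.4% lower in Cat8 than in Gal4. In several pairs the balance then turned to more regions lower than higher: 9.56% higher and 12.8% lower for Leu3, 13.7% and 18.7% for Yrm1, 10.8% and 15.6% for Yrr1, and 9.17% and 16% for Tea1. It was 4.76% and 15.9% for Hal9, 7.31% and 7.06% for Aro80, and 6.18% and 1.77% for Put3. With these totals 9 members were still higher than in Yrm1 and Yrr1, where ADY2 no longer passed (adjusted p = 0.21 and 0.0710, Fisher's exact test), and 8 than in Tea1, where SIP4 no longer passed (adjusted p = 0.142, Fisher's exact test), while ADY2 was added against Put3. With a minimum of 5 insertions or none, SIP4 also no longer passed against Tea1 and Lys14, and with none against Cha4 and Hal9, nor ADY2 against Yrm1. The other 8 members kept every call under these alternatives.

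The 6 tests that did not pass were those of the 2 members with the fewest insertions. ADY2 had a Cat8 share 3.21 to 6.95 times that in Lys14, Put3, Urc2 and Hal9, with adjusted p of 0.0858, 0.0578, 0.164 and 0.109 (Fisher's exact test). SIP4 had ratios of 2.98 against Put3 (0.903 to 12.7; adjusted p = 0.399, Fisher's exact test) and 3.44 against Urc2 (1.04 to 14.6; adjusted p = 0.183, Fisher's exact test). For PCK1 the smallest ratio was 31.9 (against Cha4, 12.2 to 118) and for SFC1 34.5 (against Yrr1, 22.2 to 57.0). For FBP1 and MDH2 it was 5.63 (against Hal9, 3.97 to 8.22) and 5.54 (against Yrm1, 4.37 to 7.10). For ACS1 it was 6.12 (against Urc2, 3.27 to 12.5) and for IDP2 4.76 (against Yrm1, 2.83 to 8.37). With totals outside called regions the smallest ratio was 20.8 for SFC1 (Yrr1), 25.2 for PCK1 (Hal9), 4.30 for FBP1 (Yrm1), 3.66 for MDH2 (Yrm1), 6.47 for ACS1 (Urc2) and 3.14 for IDP2 (Yrm1), all past the threshold.

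JEN1 had more insertions in Tea1 than in Cat8. It held 784 Tea1 insertions, 2197 per 100000 (2047 to 2354), at 14.9-fold over background (12.3 to 18.2), and ranked 4 among all Tea1 regions. The Tea1 share was 3.31 times the Cat8 share (2.79 to 3.95; Fisher's exact test, adjusted p = 9.43e-53). The remaining factor libraries held 81 insertions (Yrm1), 64 (Put3), 60 (Leu3), 42 (Urc2), 33 (Cha4), 25 (Gal4, Yrr1), 24 (Hal9, Aro80) and 20 (Lys14). Of these, Yrm1 at 1.75-fold (1.31 to 2.34) and Put3 at 1.83-fold (1.33 to 2.49) were called, the others not. The Yrm1 call was lost when libraries were thinned to equal depth, and both calls with a Bonferroni threshold.

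Tea1, an activator of Ty1 enhancer-driven transcription, was not raised at the other members. JEN1 was the only member called in that library, where 2.38% of regions were called, and it held 92.8% of the 845 Tea1 insertions at the members. The pooled fold of 5.89 (5.19 to 6.70) became 0.672 (0.497 to 0.897) without it. The next region along, JEN1/URA1, which holds the start of the pyrimidine gene URA1, was also called in Tea1, with 39 insertions at 3.17-fold (1.91 to 5.31).

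MLS1 showed the same kind of exception in Aro80, which activates genes that break down aromatic amino acids. It held 193 Aro80 insertions, 737 per 100000 (637 to 849), at 25.8-fold (16.9 to 41.3), and ranked 7 in that library. The Cat8 share was 1.66 times the Aro80 share (1.38 to 2.001; Fisher's exact test, adjusted p = 5.94e-07). With totals outside called regions this ratio was 1.41 (Fisher's exact test, adjusted p = 0.00231). Hal9 followed with 25 insertions at 4.67-fold (2.56 to 8.55) and was called. The other 9 factor libraries held 8 (Leu3, Tea1), 7 (Put3), 5 (Yrm1), 4 (Gal4, Urc2), 3 (Yrr1, Lys14) and 2 (Cha4), none of them called. MLS1 was the only member called in Aro80, where 1.41% of regions were called. Without it the pooled Aro80 fold of 2.65 (2.26 to 3.12) became 0.880 (0.685 to 1.12).

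**Figure D3:**
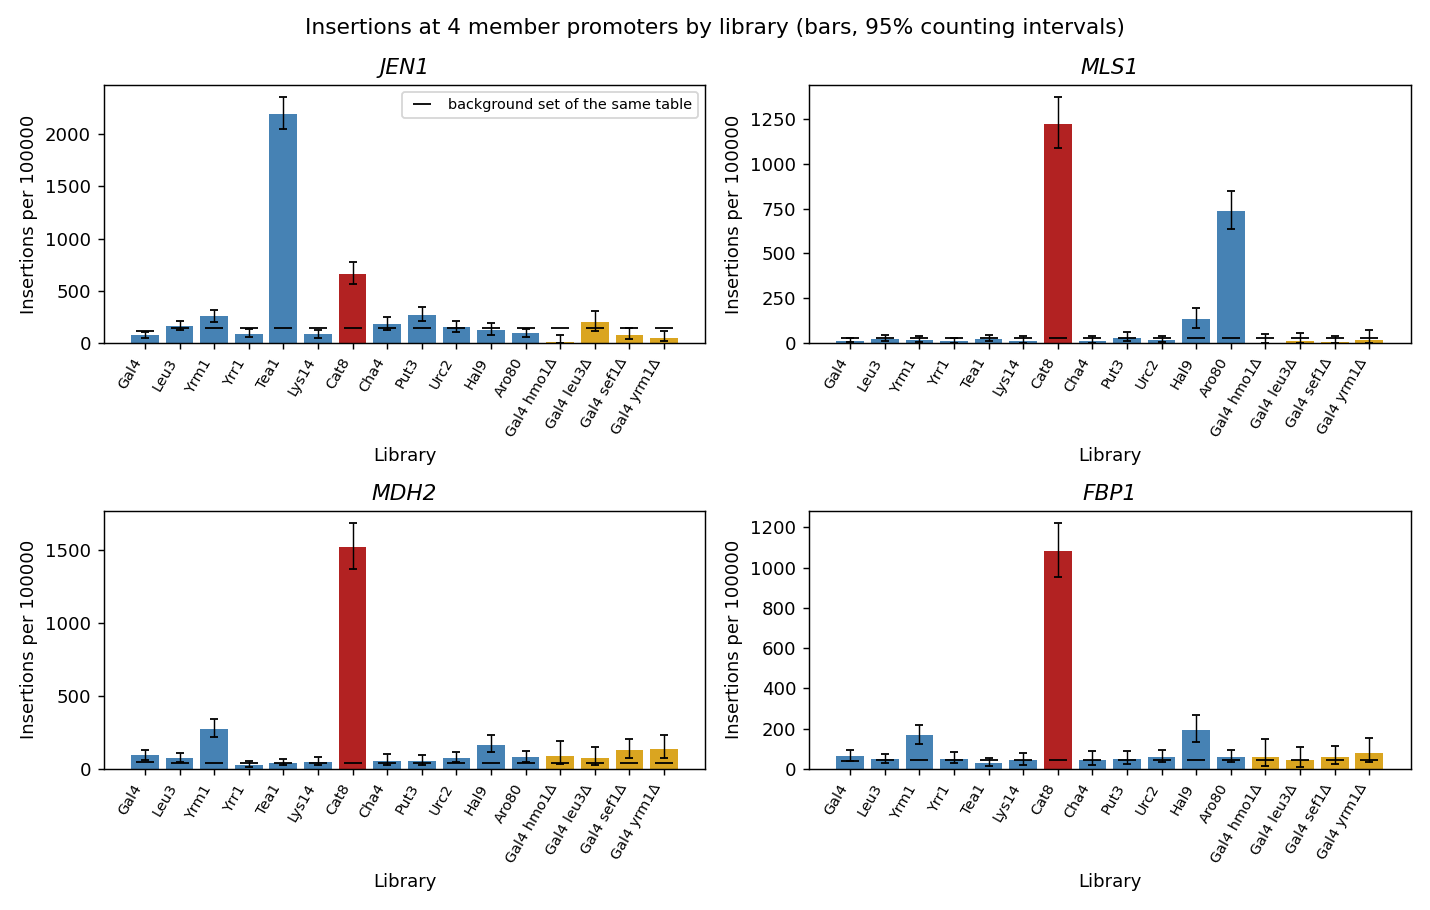
Insertions per 100000 at JEN1, MLS1, MDH2 and FBP1 in the 16 libraries (bars, with 95% counting intervals), with Cat8 in red, other factors in blue and Gal4 libraries with a further deletion in gold, and the background share of each table as a black dash. Tea1 stands highest at JEN1 (2197) and Aro80 is second at MLS1 (737), while Yrm1 and Hal9 stand above the remaining factors at MDH2 and FBP1.

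MDH2 and FBP1 were called for Yrm1 and Hal9 as well as for Cat8. Yrm1 is a regulator of multidrug resistance genes and Hal9 a factor linked to salt tolerance. At MDH2, Yrm1 held 86 insertions at 6.99-fold (4.63 to 10.8) and Hal9 31 at 4.21-fold (2.50 to 7.10). At FBP1, Yrm1 held 52 at 3.67-fold (2.37 to 5.73) and Hal9 36 at 4.25-fold (2.62 to 6.89). The other 8 factor libraries apart from Cat8 and Yrr1 held 8 (Cha4) to 21 (Gal4) insertions at FBP1 and 10 (Cha4) to 31 (Gal4) at MDH2, and none was called. MDH2 still lay above background in Aro80 (2.04-fold, 1.12 to 3.64), Gal4 (1.95-fold, 1.20 to 3.13), Urc2 (1.95-fold, 1.07 to 3.47) and Leu3 (1.91-fold, 1.10 to 3.27). With the other background set the intervals for Aro80, Urc2 and Leu3 held 1. Over the 11 factor libraries other than Cat8, MDH2 had a median of 1.91-fold with 1 library below 1. For FBP1 the median was 1.12-fold with 3 below 1. Yrr1, a relative of Yrm1, was not called at either, with 7 insertions at MDH2 (0.630-fold) and 14 at FBP1 (1.09-fold).

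In all, 3 members were called in Yrm1 (FBP1, MDH2, JEN1; 2.38% of regions) and 3 in Hal9 (FBP1, MLS1, MDH2; 2.05%). Pooled folds were 2.12 in Yrm1 (1.80 to 2.49) and 1.88 in Hal9 (1.54 to 2.30), and stayed above 1 without the leading member, at 1.59 and 1.59. Put3 called JEN1 alone (0.549% of regions). No member was called in Gal4 (1.83%), Leu3 (2.28%), Yrr1 (1.84%), Lys14 (1.03%), Cha4 (0.633%) or Urc2 (1.08%). Over the 11 factor libraries other than Cat8, 9 of the 110 combinations of member and library were called. Of all regions, 0.549% (Put3) to 2.38% (Yrm1, Tea1) were called in these libraries. PCK1, ACS1, SFC1, SIP4, IDP2 and ADY2 were called in none of them.

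The members without calls outside Cat8 still differed in level. ACS1 lay below background in all 11 other factor libraries, from 0.0784-fold in Aro80 (1 insertion) to 0.897-fold in Urc2 (12). Of these, ACS1 had intervals that held 1 in Urc2 (0.429 to 1.74), Put3 (0.280 to 1.49), Hal9 (0.114 to 1.21) and Cha4 (0.0666 to 1.05). With the other background set it lay above background in Urc2 (1.42-fold, 0.666 to 2.83) and Put3 (1.09-fold, 0.435 to 2.42), with intervals that hold 1. SFC1 lay between 0.290-fold in Gal4 (3 insertions) and 2.70-fold in Yrr1 (20, 1.40 to 5.19), with a median of 1.46. IDP2 lay between 0.377-fold in Tea1 (4) and 2.04-fold in Yrm1 (19, 1.06 to 3.85), with a median of 0.990. ADY2 reached 5.11-fold in Urc2 on 5 insertions (0.993 to 32.9), an interval that holds 1, and stood at 1.46-fold there with the other background set.

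**Figure D4:**
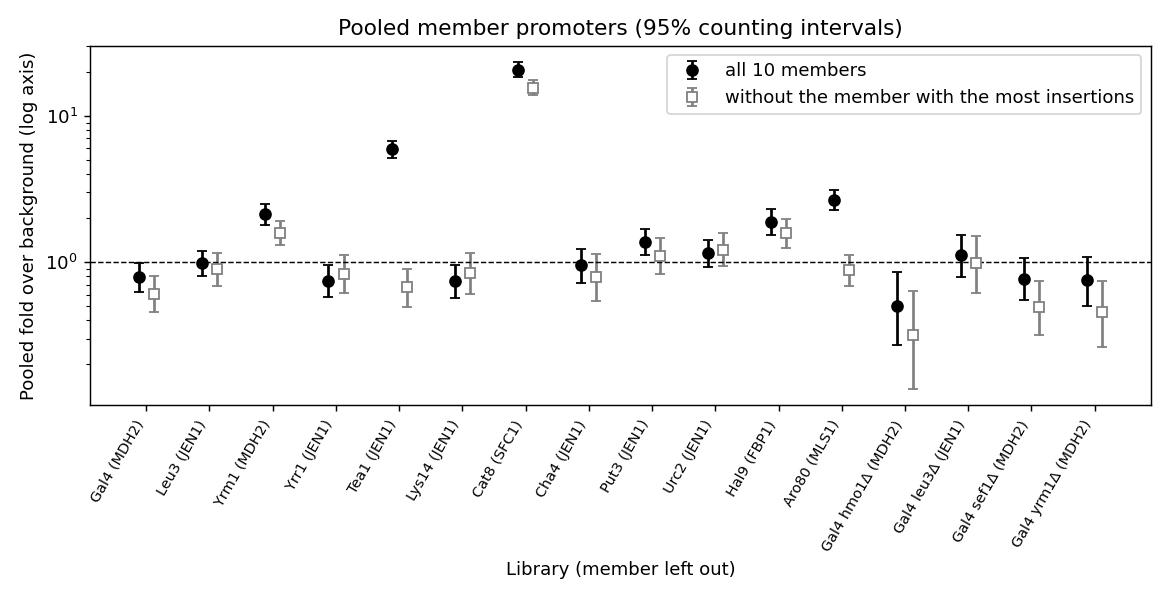
Pooled fold over background of the member promoters in each library (log axis), for all 10 members (black) and without the member with the most insertions in that library (open grey; named in brackets), with 95% counting intervals. Cat8 stays highest (20.6 and 15.6), whereas Tea1 and Aro80 fall below 1 without JEN1 or MLS1, with an Aro80 interval that holds 1.

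The 5 Gal4 libraries gave few insertions at these promoters. Over the 5 libraries MDH2 held 76, JEN1 61, FBP1 45, IDP2 13, ACS1 10, MLS1 8, SFC1 8, PCK1 2, SIP4 1 and ADY2 0. MDH2 was the leading one in this sum and in each library except the LEU3 deletion, where JEN1 led with 19. MDH2 held 31 insertions in Gal4 (1.95-fold, 1.20 to 3.13), 6 without HMO1 (2.21-fold, 0.756 to 5.33) and 7 without LEU3 (1.85-fold, 0.692 to 4.26). It held 18 without SEF1 (3.30-fold, 1.75 to 6.04) and 14 without YRM1 (3.47-fold, 1.72 to 6.67). The intervals for the HMO1 and LEU3 deletions held 1. The Gal4 table has its own background set, and with that of the deletion libraries the Gal4 fold at MDH2 was 2.35 (1.39 to 3.96). MDH2 was the only member called in any of the 5 libraries, in the SEF1 deletion (1.92% of regions) and the YRM1 deletion (1.5%). No member was called in the HMO1 deletion (1.22%) or the LEU3 deletion (0.148%). Both calls were lost with a Bonferroni threshold. With the other background set the one in the YRM1 deletion was lost and one in Gal4 was gained. The pooled member fold was 0.789 in Gal4 (0.622 to 0.994), 0.503 without HMO1 (0.272 to 0.855), 1.11 without LEU3 (0.790 to 1.53), 0.771 without SEF1 (0.548 to 1.06) and 0.750 without YRM1 (0.502 to 1.09). With the background set of the deletion libraries the pooled Gal4 fold was 0.688 (0.541 to 0.868).

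Each deletion library was compared with Gal4 by the same Fisher's exact test. Only FBP1, MDH2 and JEN1 reached 10 insertions in both libraries together, so 7 members were not tested. JEN1 was higher in the LEU3 deletion, with 19 insertions (197 per 100000) against 25 (74.3), a ratio of 2.66 (1.38 to 5.02; Fisher's exact test, adjusted p = 0.00534). In that pair 29.6% of tested regions were higher. With totals taken outside called regions 15.4% were higher and 27.2% lower, and the JEN1 ratio was 1.56 and did not pass (adjusted p = 0.24, Fisher's exact test). No member was higher in the HMO1 (6.79% of regions), SEF1 (11.1%) or YRM1 (7.39%) deletion. None was lower in any of the 4, where 1.36% (HMO1), 20.7% (LEU3), 3.97% (SEF1) and 4.35% (YRM1) of regions were. The MDH2 ratio was 1.41 without SEF1 (0.741 to 2.60) and 1.48 without YRM1 (0.727 to 2.86), so differences of either sign remain possible at this depth. Strain name and deletion cannot be told apart in these libraries.

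Other genes of the same metabolism were read in the Cat8 library from 6 lists. Of their 53 regions, 9 were called, against 1.37% of all regions. The lists were chosen with earlier results of these data known, so this difference only describes. The carnitine shuttle and peroxisomal oxidation list had 3 of 8 called and a median fold of 2.76 (0.703 over all regions). Those were the carnitine acetyltransferase genes YAT1, with 85 insertions at 11.9-fold (7.57 to 19.5), CAT2, with 25 at 5.17-fold, and YAT2, with 13 over 1 in the background. The peroxisomal oxidation genes POX1, FOX2 and POT1 held 0, 2 and 1 insertions.

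In the list of lactate, glycerol and ammonium-acetate transport 3 of 7 were called, with a median of 2.11-fold. DLD1, encoding a mitochondrial lactate dehydrogenase, stood at 4.22-fold (2.01 to 8.99), ATO3 at 2.92-fold and the glycerol transporter gene STL1 at 2.65-fold. In the glyoxylate and acetyl-CoA supply list 2 of 9 were called, with a median of 2.58-fold. They were ALD6, encoding a cytosolic acetaldehyde dehydrogenase, with 111 insertions at 6.09-fold (4.44 to 8.42), and the pyruvate carboxylase gene PYC1 at 3.51-fold (2.08 to 5.92). ADH2, the ethanol-oxidising alcohol dehydrogenase gene, stood at 2.69-fold (1.20 to 5.87) and was not called. ICL1 and CIT2 had no region of their own by the rule used.

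Of 9 regulator promoters 1 was called in Cat8, with a median of 1.51-fold. This was ADR1, the activator gene of ethanol and fatty acid use, with 47 insertions at 3.93-fold (2.54 to 6.11). CAT8 itself held 4 insertions at 1.56-fold (0.351 to 5.60). None of 7 regions for the degradation of gluconeogenic enzymes was called (median 1.48-fold), and none of 13 glycolytic regions (median 0.827-fold), of which the highest was PFK2 at 1.22-fold.

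**Figure D5:**
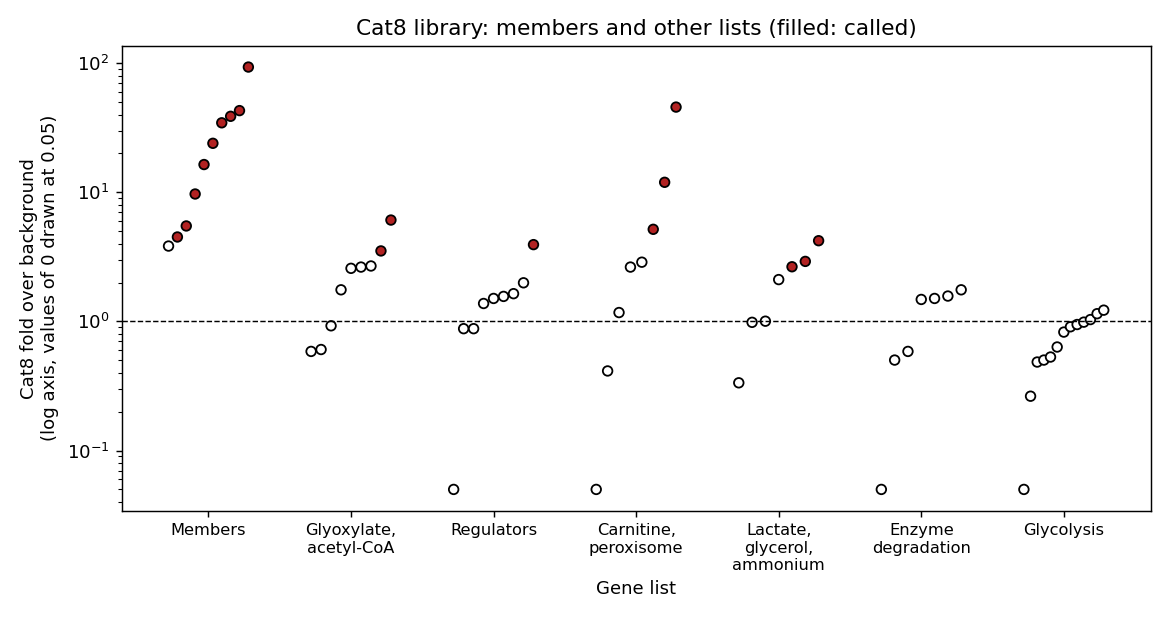
Cat8 fold over background (log axis) of the members and of 6 other gene lists, 1 point per region, filled where called, with values of 0 drawn at 0.05. The members lie between 3.83 and 93.3, and the glycolytic points lie at or below 1.22.

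These lists also held regions with high folds in other libraries. PYC1 stood at 15.2-fold in Tea1 (207 insertions), above its 3.51-fold in Cat8. ADR1 stood at 17.5-fold in Gal4 (267 insertions, 12.8 to 24.5) and HAP4, the respiratory activator gene, at 21.8-fold (876). DAL7, the gene of a second malate synthase active in allantoin use, stood at 25.3-fold in Lys14 (43 insertions, 10.7 to 72.9), against 3 insertions in Cat8. YAT1 stood at 7.60-fold in Urc2 and ATO2 at 12.6-fold in Gal4. Among the list regions called in Cat8, YAT1 was also called in Yrm1, Tea1, Cha4 and Hal9, and ADR1 in Leu3, Hal9 and Aro80. ALD6 was also called in Gal4 and Yrr1, and PYC1 in Leu3 and Urc2. YAT2, CAT2, STL1 and DLD1 were called in no other factor library. Further called regions were GID8 at 9.94-fold and CDC19 at 4.18-fold in Gal4, VID24 at 4.49-fold and TDH1 at 3.17-fold in Tea1, and ATO3 at 3.62-fold in Aro80.

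Outside the members and lists, 45 regions were called in Cat8 and present in all 12 factor tables. Those with the pattern most like the pooled members over the 12 libraries, by Pearson correlation of log2 folds with 0.5 insertions added, were RKI1/RPS7A (r = 0.777), CDA1/CDA2 (0.767), PRM4/KIP2 (0.717), WTM2/WTM1 (0.664) and STH1/KGD1 (0.644). In the pooled pattern, JEN1 held 92.8% of the Tea1 insertions and MLS1 69.2% of the Aro80 insertions. A likeness in those libraries is therefore largely to single members. All libraries but Gal4 share 1 background set, and the candidates were chosen for their Cat8 call, so these values only describe. RKI1/RPS7A held 55 Cat8 insertions at 8.78-fold, CDA1/CDA2, the region between the chitin deacetylase genes of spore wall formation, 167 at 45.1-fold, and PRM4/KIP2 41 at 7.20-fold. No other factor was called at these 3, or at STH1/KGD1 (16 insertions, 4.32-fold), which lies next to a citric acid cycle gene. WTM2/WTM1 was at 2.72-fold in Cat8 and was called for 1 other factor, at up to 17.2-fold.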

How the data were processed

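Per the labels' protocols, genomic DNA was cut with HpaII, HinP1I and Taqα1 in separate reactions and Ty5 junctions were amplified by inverse PCR. Novoalign and sacCer2 are listed in the submitters' processing notes. Other tools, filters and the origin of the background are not given in the sources used here. The authors deposited, per library, counts of insertions between neighbouring genes in the library and in a background set (84109 insertions in 15 tables, 103922 in the Gal4 table), and the same for wider regions. The deposited fraction columns divide each count by its total, and the totals were taken from them. The deposited p-value columns hold a hypergeometric and a Poisson test of the library against background. Recomputed hypergeometric values differed by at most 3.26e-08, so deposited values near 1e-09 or below are rounding noise. All 10 member regions have the gene ends of the R64 assembly as edges in the 15 tables. Coordinates are printed as deposited, unconverted. Non-nuclear regions (8) were dropped.

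Computed here were folds with exact conditional binomial intervals and Fisher's exact tests with Benjamini-Hochberg adjustment at 0.05, over all regions whose summed count reached 10 (Python 3.11.15, numpy 2.4.6, scipy 1.17.1, pandas 2.3.3, matplotlib 3.10.9). Calls and tests were tested on simulated data. A count of 0 was given the upper end of its interval. Insertions were counted after PCR without molecular tags, so intervals cover counting error only. With 1 library per group, tests compare libraries. Members and lists were chosen with earlier results of these data known. Named were the members, list regions called in Cat8, the 2 highest called folds per list in another factor library, and the 5 regions most like the members. The glyoxylate list gave ICL1 and CIT2 no region, and the regulator list gave ERT1 none. A description of promoter motifs was planned and not run, since no promoter sequence was used here. Alternatives covered the p threshold and column, minimum counts, region width, depth, scaling and background set.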

Additional observations from a re-analysis of the deposited data

How the results depend on the processing

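The 9 members called in Cat8 kept their call under every alternative run, and SIP4 was added by 4 of them. No count of members in the 11 comparisons with Cat8 moved by over 1.5 times, although calls of ADY2 (Yrm1, Yrr1) and SIP4 (Tea1, Lys14, Cha4, Hal9) were lost with another scaling or minimum, and ADY2 against Put3 was gained. Scaling by insertions outside called regions moved log2 ratios by -0.73 (Yrr1) to 0.12 (Put3) in these comparisons, and by -0.77 in the LEU3 deletion, where the count of members higher than in Gal4 fell from 1 to 0.

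At a p of 0.01, 1 member was called in Gal4, Leu3 and Yrr1 and 2 in Aro80, and with the Poisson p 1 was called in Gal4, Leu3 and Yrr1. With a Bonferroni threshold 0 were called in Put3 and in the SEF1 and YRM1 deletions. With the other background set 1 was called in Gal4 and 0 in the YRM1 deletion, and pooled folds were 23.7 in Cat8 and 6.76 in Tea1. The share of all regions called was not computed under these rules, so the counts have no general rate beside them. As shares of insertions between genes, pooled folds were 17.5 (Cat8), 4.82 (Tea1) and 1.54 (Hal9).

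Without the leading member, pooled folds turned to 0.672 in Tea1 and 0.880 in Aro80 (0.685 to 1.12, which holds 1). They moved to 15.6 (Cat8), 1.59 (Yrm1), 1.11 (Put3), 0.608 (Gal4), 0.497 (SEF1 deletion) and 0.456 (YRM1 deletion). The Put3 interval (0.829 to 1.46) holds 1. With the 4 regions that open onto the member alone they turned to 1.34 (Yrr1), 1.15 (Lys14) and 0.648 (Tea1), and moved to 45.0 (Cat8), 2.80 (Hal9), 1.42 (Urc2), 1.16 (Aro80) and 1.11 (Put3). These alternatives use fewer regions by construction, and the cause of the other changes was not tested. No paired analysis was possible because each group has 1 library. SIP4 and ADY2 rest on 12 and 14 Cat8 insertions, and 7 of the 10 members had too few insertions to be tested in the deletion libraries.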
